A study of Mus musculus with 4 samples.

Results

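Transcripts of glucocorticoid-responsive genes and of the receptors and enzymes that serve the hormone were examined in the hypothalamus of mice bearing the C26 colon adenocarcinoma. The set was given as 34 gene symbols, and each gene was represented by the probe set with the highest mean among those with exactly 1 symbol. Of these symbols, 32 were measured, among 19938 genes in all. Nedd9 had no named probe set here, and the 1 probe set that lists Cdkn1a also lists a second symbol. The 32 genes were sorted by role into receptors, hormone activation and chaperones (5 genes), transcription regulators (6), kinases and signalling modulators (10), metabolism and metal binding (8), and glial junction, engulfment and cytoskeleton (3).

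Corticosterone, the main glucocorticoid of mice, acts in brain through the glucocorticoid receptor Nr3c1 and the mineralocorticoid receptor Nr3c2. The bound receptor leaves its chaperones, enters the nucleus and binds DNA as a dimer at inverted repeats of the half-site TGTTCT, from which targets such as Fkbp5, Tsc22d3, Sgk1 and Per1 are induced. In the hypothalamus the hormone also closes the feedback loop of the stress axis, in which Crh and Avp drive the pituitary.

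The study asked how the hypothalamus differs with increasing tumour load. The animals were CDF1 mice (BALB/cx DBA/2), all male and aged 10 to 11 weeks, killed on day 20 after subcutaneous injection of 0.2 ml of Hanks' balanced salt solution. The 4 control mice received this vehicle alone and were pooled on 1 array. The solution carried 500000 C26 cells in 4 pooled mice (0.5M), 1000000 cells in 3 pooled mice (1M) and 2000000 cells in 1 mouse (2M), each again on 1 array. The inoculum is a number of injected cells, and no measure of tumour or body mass was used here. The title of the 2M sample calls it pooled, whereas its source is recorded as 1 animal.

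The values were log2 expression made by the authors with RMA. Every group was 1 array, so a difference at a single cell number had no replicate check, and the number of arrays limited the precision. Array medians over all probe sets were 6.75 in the control, 6.72 at 0.5M, 6.77 at 1M and 6.75 at 2M. Of the 9 hypothalamus markers measured, 8 lay past the filter on dim genes, including Otp, Sim1, Pmch and Hcrt. The 0.5M array stood apart in anterior pituitary hormone transcripts. Gh, the growth hormone gene, was at 6.13 log2 in the control, 10.80 at 0.5M, 6.91 at 1M and 6.85 at 2M, and Prl, the prolactin gene, at 3.95, 7.80, 4.50 and 4.51 in the same order. The 2M array differed in the oligodendrocyte gene Opalin, at 5.88 log2, against 7.60 in the control, 7.22 at 0.5M and 7.61 at 1M. Main counts are therefore also given without each of these arrays. In bulk tissue, fewer cells of a type and less RNA per cell cannot be told apart.

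Promoter windows from RefSeq (GRCm38.p6, 250 bases before to 50 bases after a gene start) were found for 29 of the 34 symbols, 42 windows in all. One window each is shown for 4 of the genes that were higher in every tumour-bearing array, so that the receptor's half-site can be looked for. The windows shown of Sgk1, Fam107a and Sult1a1 hold it, so those shown do not represent the set. Capitals mark the half-site TGTTCT or its reverse complement AGAACA, and the whole palindrome where both stand in the receptor's arrangement.
Sgk1, chr10:21993640-21993939, plus strand: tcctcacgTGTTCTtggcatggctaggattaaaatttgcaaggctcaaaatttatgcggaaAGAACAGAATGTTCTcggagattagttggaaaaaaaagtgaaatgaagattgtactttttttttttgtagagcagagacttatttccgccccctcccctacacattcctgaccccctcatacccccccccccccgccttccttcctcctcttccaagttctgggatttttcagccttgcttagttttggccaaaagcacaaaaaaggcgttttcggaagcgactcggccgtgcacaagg
Fam107a, chr14:8309728-8310027, minus strand: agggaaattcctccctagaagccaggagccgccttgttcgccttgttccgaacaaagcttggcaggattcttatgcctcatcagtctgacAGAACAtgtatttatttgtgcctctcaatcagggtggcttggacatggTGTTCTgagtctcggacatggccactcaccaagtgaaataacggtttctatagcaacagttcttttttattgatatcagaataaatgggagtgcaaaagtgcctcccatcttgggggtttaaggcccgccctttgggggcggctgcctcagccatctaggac
Sult1a1, chr7:126676369-126676668, minus strand: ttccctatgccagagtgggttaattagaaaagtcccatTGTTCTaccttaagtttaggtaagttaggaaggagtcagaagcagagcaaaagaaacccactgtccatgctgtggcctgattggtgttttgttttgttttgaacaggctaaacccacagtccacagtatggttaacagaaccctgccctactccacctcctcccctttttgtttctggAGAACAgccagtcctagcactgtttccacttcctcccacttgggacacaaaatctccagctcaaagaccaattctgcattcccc
Plin4, chr17:56109733-56110032, minus strand: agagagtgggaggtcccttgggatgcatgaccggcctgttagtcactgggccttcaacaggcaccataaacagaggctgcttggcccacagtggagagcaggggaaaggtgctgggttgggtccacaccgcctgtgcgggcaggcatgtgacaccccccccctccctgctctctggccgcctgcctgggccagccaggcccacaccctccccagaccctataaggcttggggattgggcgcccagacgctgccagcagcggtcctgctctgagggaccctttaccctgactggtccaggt
The full palindrome was searched as AGAACA, any 3 bases and TGTTCT, which reads the same on both strands, and was in 3 of 32851 promoter windows (0.00913%). One of these was 1 of the 6 windows of Sgk1, where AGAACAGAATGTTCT begins 189 bases before the gene start. The half-site TGTTCT, searched on both strands and counted also within the palindrome, was in a window of 5 of the 29 genes with a window (17.2%), namely Bcl6, Fam107a, Sgk1, Sult1a1 and Tsc22d3. Of all 27025 genes with a window, 21.3% held it. In the Fam107a window shown, 1 of 3 for this gene, an AGAACA and a TGTTCT begin 160 and 112 bases before the start. In Sult1a1 a TGTTCT and an AGAACA begin 212 and 34 bases before the start. The Plin4 window holds neither. A match is a description of these windows and not a binding site, and sites farther from the start or within introns were not searched.

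Most glucocorticoid-responsive genes were higher in tumour-bearing hypothalamus, whereas the receptors were level or lower. The control array lay below all 3 tumour-bearing arrays for 21 of the 32 genes (33.4% of the 11963 genes tested) and above all 3 for 5 (27.3% of the genes tested). At 0.5M, 1M and 2M singly, 23, 27 and 25 of the 32 genes were above control (51.5%, 56.9% and 51.8% of the genes tested). The 21 included Plin4, Sgk3, Fam107a, Klf15, Fkbp5 and Sgk1, and the 5 were Nr3c1, Nr3c2, Fkbp4, Rhob and Gjb6. With 2 tumour-bearing arrays left, the condition is easier to meet for any gene. The control array then lay lowest for 25 of the 32 genes without the 0.5M array (42.2% of the genes tested), for 21 without the 1M array (39.6%) and for 23 without the 2M array (39.0%). The median difference of the mean of the tumour-bearing arrays from control was 0.29 log2 over the 32 genes and 0.01 over all genes tested. A mean difference of at least 0.5 log2 above control was found for 7 genes (0.752% of the genes tested) and of at least 0.3 log2 for 16 (4.67% of the genes tested), while 0 were lower by 0.3 log2 or more (4.25% of the genes tested). The 7 were Klf15, Sgk3, Arrdc2, Plin4, Pdk4, Sult1a1 and Fam107a. The median was 0.37 without the 0.5M array, 0.25 without the 1M array and 0.25 without the 2M array. It was 0.19 with a filter at the 60th percentile, which 26 of the 32 genes passed. Map3k6 and Arrdc2 passed the filter through the tumour-bearing arrays, their control values lying below it. Without these 2 genes, an alternative chosen after seeing the data, the control array lay lowest for 19 of 30 genes, 6 were at least 0.5 log2 and 14 at least 0.3 log2 higher on average, and the median was 0.22.

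At each cell number, genes past 0.5 log2 from control (1.41-fold) were counted with no test. At 0.5M 2 of the 32 were at least 0.5 log2 higher (0.56% of the genes tested), Sgk3 and Plin4. At 1M 9 were (1.63% of the genes tested), and at 2M 12 (1.24% of the genes tested). Without Map3k6 and Arrdc2 these counts were 2, 8 and 10 of 30. At a threshold of 0.3 log2, 11, 15 and 17 of the 32 were higher at 0.5M, 1M and 2M (3.38%, 10.3% and 6.06% of the genes tested), and at 1 log2 1, 1 and 2 were (0.0836%, 0.0836% and 0.142%). None of the 32 was at least 0.5 log2 lower at any cell number, where 0.293%, 2.14% and 1.25% of the genes tested were at 0.5M, 1M and 2M. The medians of the 32 genes were 0.20, 0.29 and 0.33 log2 at 0.5M, 1M and 2M, against 0.01, 0.04 and 0.01 for all genes tested. These comparisons share the control array, so they are not independent of each other.

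**Figure D1:**
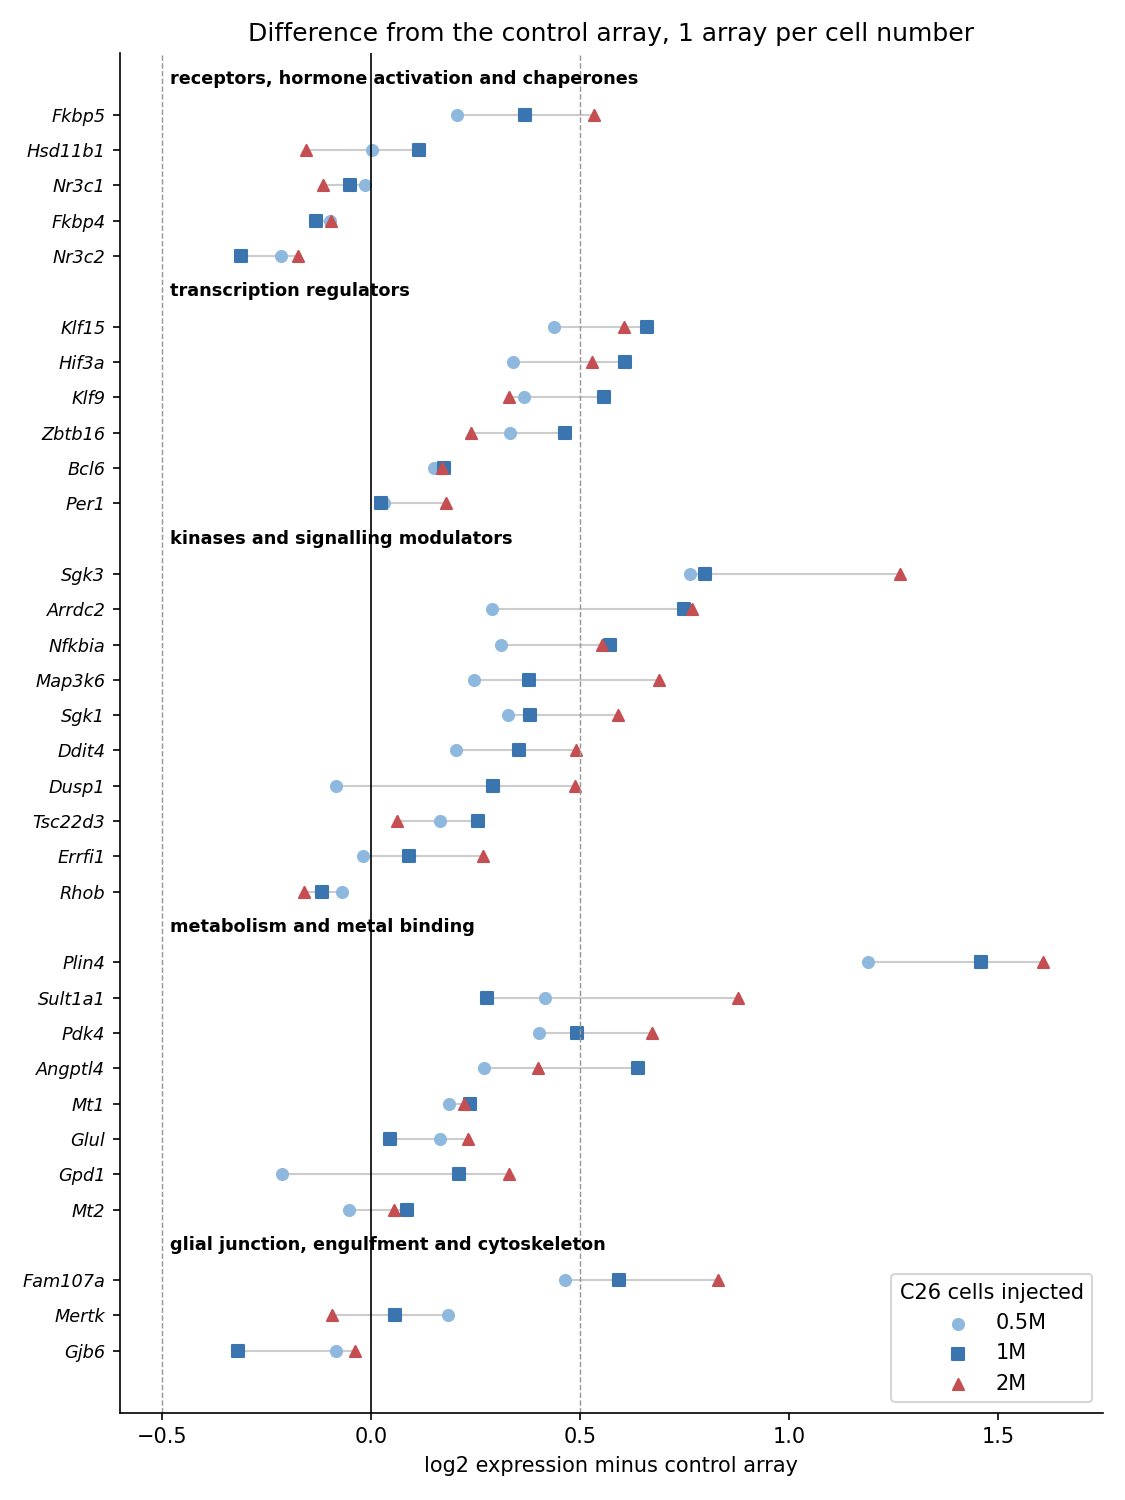
Difference of log2 expression from the control array (x axis) for each of the 32 measured genes (rows, grouped by role), with 1 symbol per tumour-bearing array (circle 0.5M, square 1M, triangle 2M). Grey bars join the arrays of a gene and dashed lines mark 0.5 log2 on either side of control. Plin4 lies between 1.19 and 1.61 and Sgk3 between 0.76 and 1.27, while all 3 symbols of Nr3c1 and Nr3c2 lie below 0.

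In limma, with the 3 tumour-bearing arrays set against the control array, 0 of the 32 genes passed at an adjusted p of 0.05 over all genes tested (0.0502% of the genes tested passed). At an unadjusted p under 0.05, 16 of the 32 were higher (6.19% of the genes tested) and 0 were lower (4.61% of the genes tested). The 16 became 14 of 30 without Map3k6 and Arrdc2. The lowest adjusted p was that of Plin4, 0.119. The limma test treats the spread between cell numbers as that of replicates and assumes that the lone control array varies like them. A permutation test of 3 arrays against 1 has 4 arrangements, so its one-sided p cannot go below 0.25.

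Among receptors and their partners, Fkbp5 alone was higher in every tumour-bearing array. Nr3c1, the glucocorticoid receptor, stood at 8.57 log2 in the control, 8.55 at 0.5M, 8.52 at 1M and 8.45 at 2M. The tumour-bearing arrays lay below control by a mean of -0.06 ± 0.05 log2 (SD over 3 arrays, limma adjusted p = 0.839), and the gap of the nearest one, 0.5M, was -0.01. Nr3c2, the mineralocorticoid receptor, stood at 8.21 log2 in the control, 7.99 at 0.5M, 7.89 at 1M and 8.03 at 2M. This was the lowest mean difference of the 32 genes, -0.23 ± 0.07 log2 (limma adjusted p = 0.461), a ratio of 0.85, and no tumour-bearing array reached the control value. Hsd11b1, the enzyme that regenerates active corticosterone from its inert keto form, was at 6.66, 6.66, 6.78 and 6.51 log2 in the control, 0.5M, 1M and 2M arrays. Its control value lay within the range of the tumour-bearing arrays.

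The immunophilins Fkbp4 and Fkbp5 bind the receptor complex with opposite effects, Fkbp4 favouring and Fkbp5 opposing hormone binding and nuclear entry. Fkbp5 was at 8.24 log2 in the control, 8.44 at 0.5M, 8.61 at 1M and 8.77 at 2M, in the order of cell number. Its mean difference from control was 0.37 ± 0.16 log2, a 1.29-fold difference (limma adjusted p = 0.429, unadjusted p = 0.0334). Fkbp4 was at 8.70 log2 in the control, 8.60 at 0.5M, 8.57 at 1M and 8.60 at 2M, slightly below control in each tumour-bearing array.

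All 6 transcription regulators were above control in every tumour-bearing array (33.4% of the genes tested), with a median of the mean differences of 0.38 log2. Klf15, a Krüppel-like factor that directs amino acid and lipid metabolism, was at 8.08 log2 in the control, 8.51 at 0.5M, 8.74 at 1M and 8.68 at 2M. Its mean difference was 0.57 ± 0.12 log2, 1.48-fold (limma adjusted p = 0.362, unadjusted p = 0.00213). Klf9, a related factor induced by both glucocorticoids and thyroid hormone, was at 9.53 log2 in the control, 9.89 at 0.5M, 10.09 at 1M and 9.86 at 2M. Both were highest at 1M. Hif3a, a hypoxia-inducible factor subunit, was at 7.60 log2 in the control, 7.94 at 0.5M, 8.21 at 1M and 8.13 at 2M, with a mean difference of 0.49 ± 0.14 log2. Zbtb16, a zinc finger repressor, was at 9.41 log2 in the control, 9.74 at 0.5M, 9.87 at 1M and 9.65 at 2M. Like Klf9 it was highest at 1M and lowest of the tumour-bearing arrays at 2M. The repressor Bcl6 was 0.17 ± 0.01 log2 above control on average (limma adjusted p = 0.525). Per1, a clock repressor that glucocorticoids induce directly, was the member of this role nearest to control, at 9.48 log2 in the control, 9.51 at 0.5M, 9.50 at 1M and 9.66 at 2M.

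Of the 10 measured kinases and signalling modulators, 7 were above control in every tumour-bearing array (33.4% of the genes tested). In every one of these arrays 1 gene, Rhob, was below control (27.3% of the genes tested). Sgk3, a kinase of endosomes related to Sgk1, had the highest mean difference of this role. It was at 7.94 log2 in the control, 8.70 at 0.5M, 8.74 at 1M and 9.21 at 2M. The mean difference was 0.94 ± 0.28 log2, 1.92-fold (limma adjusted p = 0.375, unadjusted p = 0.00274). Sgk1, the serum- and glucocorticoid-induced kinase whose promoter window holds the full palindrome, was at 8.82 log2 in the control, 9.15 at 0.5M, 9.21 at 1M and 9.42 at 2M. Its mean difference was 0.43 ± 0.14 log2, 1.35-fold (limma adjusted p = 0.375).

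Arrdc2, an arrestin-domain protein gene, was at 6.59 log2 in the control, 6.88 at 0.5M, 7.34 at 1M and 7.35 at 2M. Map3k6, a kinase of the MAP kinase cascades, was at 6.47 log2 in the control, 6.71 at 0.5M, 6.84 at 1M and 7.16 at 2M. Both control values lay below the filter value of 6.59 log2. Nfkbia, the inhibitor that holds NF-kB in the cytoplasm, was at 8.16 log2 in the control, 8.47 at 0.5M, 8.73 at 1M and 8.71 at 2M. Ddit4, an inhibitor of mTORC1, was at 8.08 log2 in the control, 8.28 at 0.5M, 8.43 at 1M and 8.57 at 2M.

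Genes of this role that are textbook glucocorticoid targets were not uniform. Tsc22d3, the glucocorticoid-induced leucine zipper, was at 8.74 log2 in the control, 8.91 at 0.5M, 8.997 at 1M and 8.80 at 2M. Its mean difference of 0.16 ± 0.10 log2 (limma adjusted p = 0.602) came with the 2M array only 0.06 above control. Dusp1, a MAP kinase phosphatase, was at 9.43 log2 in the control, 9.34 at 0.5M, 9.72 at 1M and 9.92 at 2M, so the control value lay within the range of the tumour-bearing arrays. Errfi1, an inhibitor of the EGF receptor, showed the same order, at 9.95, 9.94, 10.05 and 10.22 log2 in the control, 0.5M, 1M and 2M arrays. Rhob, a small GTPase, was below control by 0.07, 0.12 and 0.16 log2 at 0.5M, 1M and 2M.

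Plin4, a lipid droplet coat protein, had the largest difference of all 32 genes. It was at 6.69 log2 in the control, 7.88 at 0.5M, 8.15 at 1M and 8.30 at 2M. The gap between the control and the nearest tumour-bearing array was 1.19 log2. The mean difference was 1.42 ± 0.21 log2, 2.67-fold, with a limma adjusted p of 0.119. It passed at a limma adjusted p of 0.0233 without the 0.5M array (1.53 log2) and of 0.0418 without the 2M array (1.32 log2), where 0.0502% of the genes tested passed in either case. Without the 1M array, where 0.0251% passed, the limma adjusted p of Plin4 was 0.318 (1.40 log2), and over the other alternatives it lay between 0.0616 and 0.309.

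Other metabolic genes differed by smaller amounts. Pdk4, the kinase that blocks pyruvate oxidation, was at 8.73 log2 in the control, 9.13 at 0.5M, 9.22 at 1M and 9.40 at 2M, with a mean difference of 0.52 ± 0.14 log2 (limma adjusted p = 0.375). Angptl4, a secreted inhibitor of lipoprotein lipase, was at 6.63 log2 in the control, 6.90 at 0.5M, 7.26 at 1M and 7.03 at 2M. Sult1a1, a phenol sulfotransferase, was at 7.43 log2 in the control, 7.85 at 0.5M, 7.71 at 1M and 8.31 at 2M, and its 3 tumour-bearing arrays had the widest spread in the set (SD 0.31 log2). Gpd1, cytosolic glycerol phosphate dehydrogenase, was at 8.19 log2 in the control, 7.98 at 0.5M, 8.41 at 1M and 8.53 at 2M, so the control lay within their range.

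The metallothioneins, which bind zinc and copper, differed from each other. Mt1 was at 11.49 log2 in the control, 11.68 at 0.5M, 11.73 at 1M and 11.71 at 2M, a mean difference of 0.22 ± 0.03 log2 (limma adjusted p = 0.46). Mt2 was at 12.98, 12.93, 13.07 and 13.04 log2 in the same order, with a mean difference of 0.03 ± 0.07 log2 that turned to -0.00396 when arrays were centred on their medians. These genes are close paralogues, and whether their probe sets share signal was not tested. Glul, the glutamine synthetase of astrocytes, differed from control by 0.17 log2 at 0.5M, 0.05 at 1M and 0.23 at 2M by the probe set used. A second probe set of Glul gave 0.09, -0.06 and 0.11 log2, so the control array is not the lowest there.

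Among glial genes, Fam107a, an actin-associated protein that glucocorticoids and stress induce in brain, was at 10.60 log2 in the control, 11.07 at 0.5M, 11.19 at 1M and 11.43 at 2M. Its mean difference was 0.63 ± 0.19 log2, 1.55-fold (limma adjusted p = 0.375, unadjusted p = 0.00458). Gjb6, an astrocyte connexin, was below control by 0.08, 0.32 and 0.04 log2 at 0.5M, 1M and 2M. Mertk, a receptor for engulfment of cell debris, was at 9.41 log2 in the control, 9.59 at 0.5M, 9.46 at 1M and 9.31 at 2M, in falling order among the tumour-bearing arrays.

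**Figure D2:**
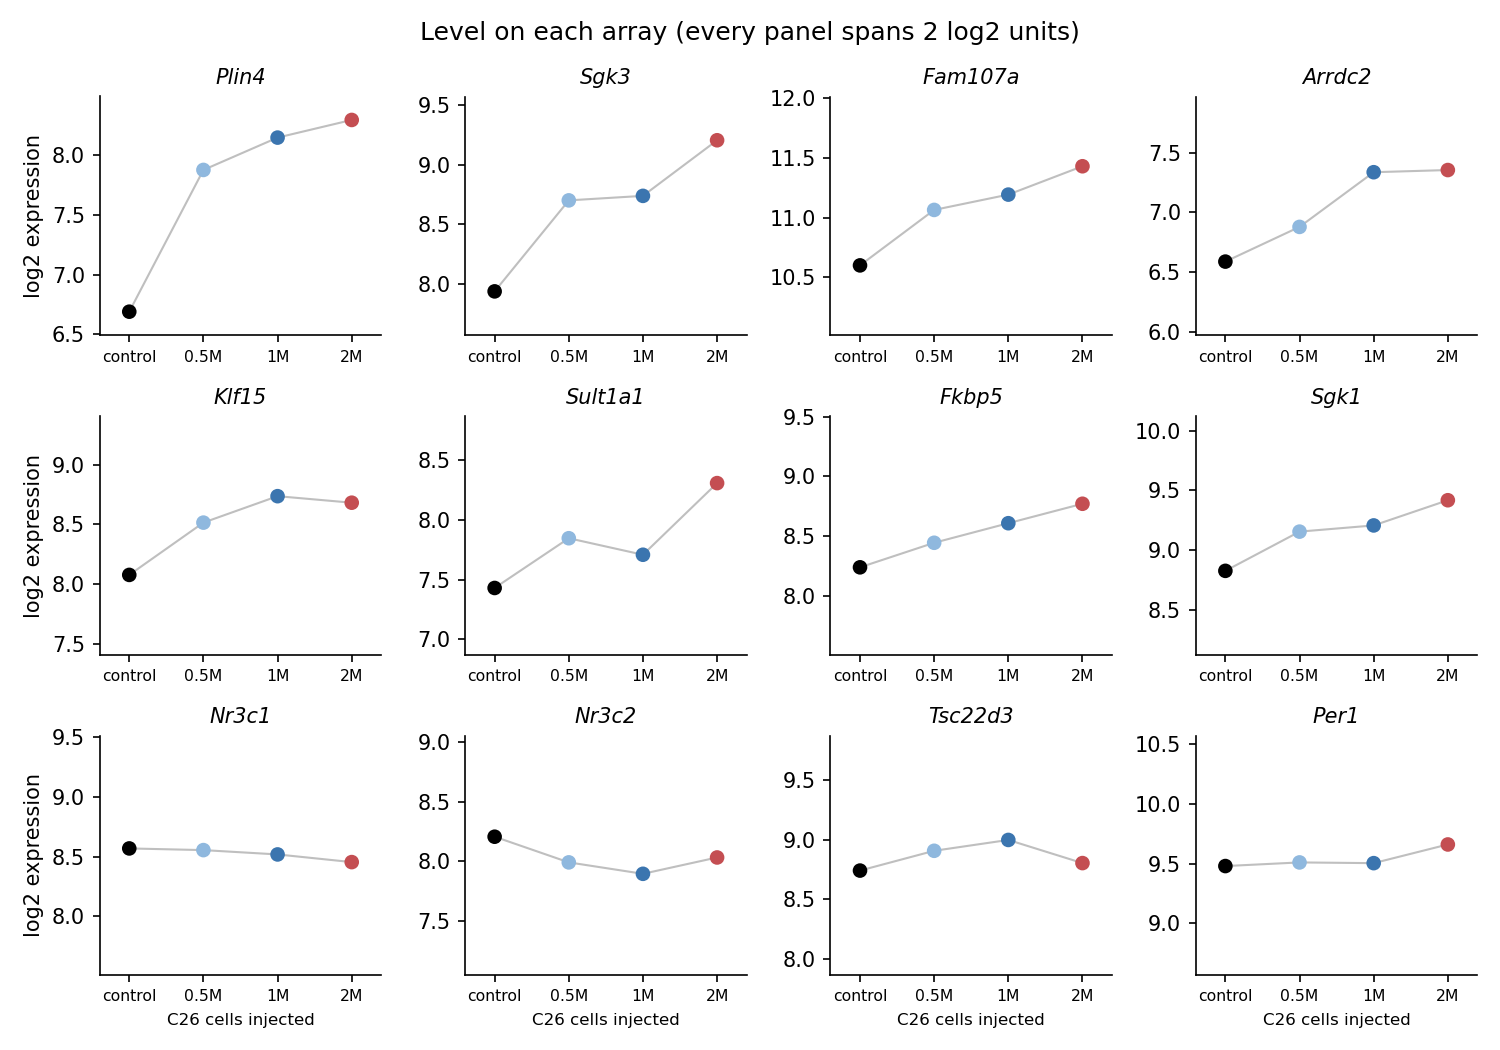
Log2 expression (y axis, each panel spanning 2 log2 units) on the control, 0.5M, 1M and 2M arrays (x axis), 1 point per array, for 12 of the genes. The upper 8 panels show genes whose control value is the lowest of the 4 arrays, such as Plin4 at 6.69 against 7.88 to 8.30. Nr3c1 and Nr3c2 have their highest value in the control, and Tsc22d3 and Per1 stay within 0.26 log2 of it.

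Differences among the tumour-bearing arrays do not involve the control array. The values at 0.5M, 1M and 2M were in rising order for 12 of the 32 genes (11.1% of the genes tested) and in falling order for 3 (11.8% of the genes tested). The 12 were Fkbp5, Sgk1, Sgk3, Map3k6, Errfi1, Dusp1, Arrdc2, Ddit4, Plin4, Pdk4, Gpd1 and Fam107a, and the 3 were Nr3c1, Rhob and Mertk. With the control array put first, 9 genes were in rising order over all 4 arrays (5.22% of the genes tested). At 1M 23 of the 32 were higher than at 0.5M (56.1% of the genes tested), and at 2M 18 were higher than at 1M (43.1% of the genes tested). Between 2M and 0.5M, 25 of the 32 genes were higher at 2M (48.8% of the genes tested), 9 of them by at least 0.3 log2 (2.08% of the genes tested). At least 0.5 log2 separated 3 genes (0.217% of the genes tested), which were Dusp1 at 0.57, Gpd1 at 0.54 and Sgk3 at 0.50 log2. None of the 32 was lower by 0.3 log2 or more, as 2% of the genes tested were, and Mertk was the lowest at -0.28. None was higher by 1 log2 (0.0167% of the genes tested). The median of 2M minus 0.5M was 0.16 log2 over the 32 genes and -0.003 over all genes tested. This compares 1 animal with a pool of 4 and has no test, and it rests on the 0.5M array that stood apart. In the same comparison oligodendrocyte markers had a median of -0.22 log2, microglia markers -0.13 and pituitary markers -0.12, with Gh at 6.85 log2 at 2M against 10.80 at 0.5M. The part of these in it was not tested.

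**Figure D3:**
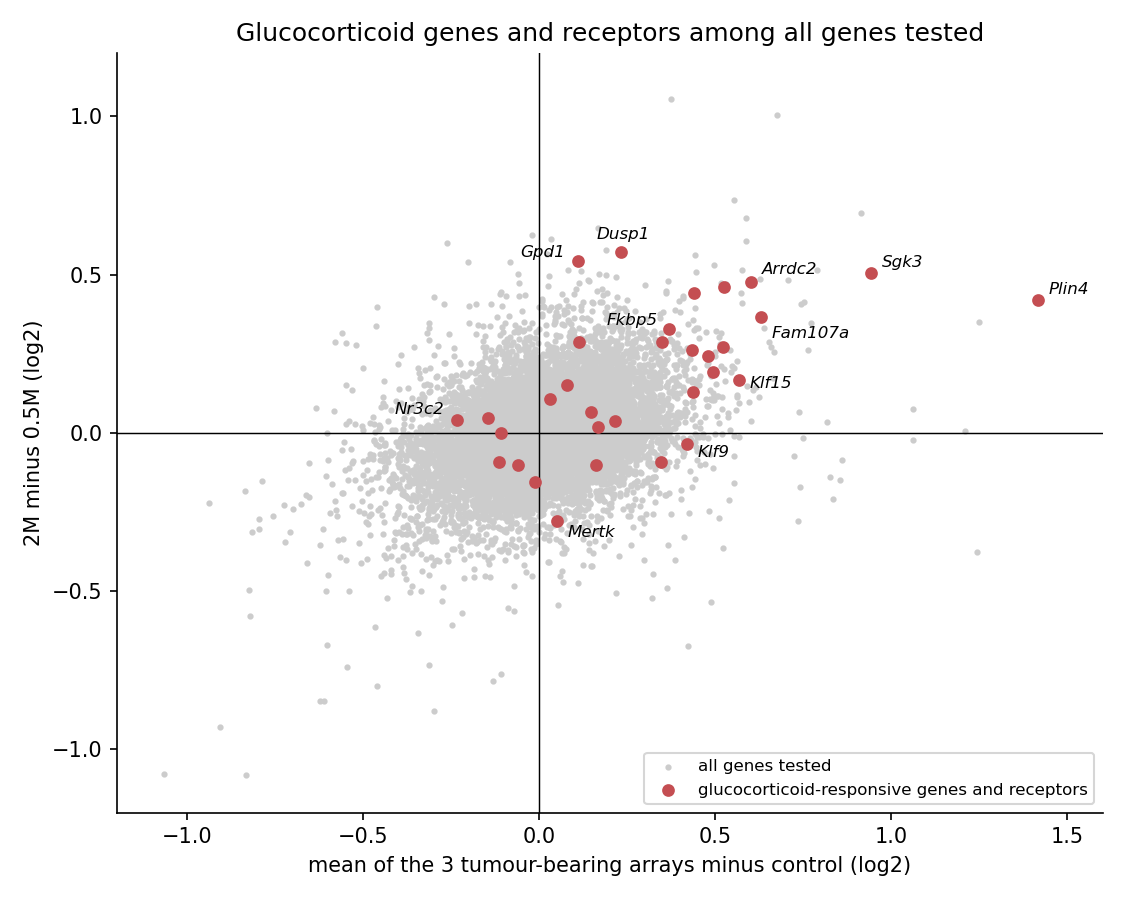
Mean of the 3 tumour-bearing arrays minus control (x axis, log2) against 2M minus 0.5M (y axis, log2), with 1 grey point per gene tested and red points for the 32 genes. The axes leave out 5 genes, none of them red. Plin4 and Sgk3 lie at the upper right, at 1.42 and 0.42 and at 0.94 and 0.50, while Nr3c2 lies left of 0 and Mertk below it.

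In a linear trend over the 4 arrays, 0 of the 32 genes passed limma over all genes tested (0% of the genes tested passed), and 16 had an upward slope at an unadjusted p under 0.05 (3.34% of the genes tested). Downward slopes at that threshold were found for 0 of them (3.18% of the genes tested). The steepest were Plin4 at 0.71 ± 0.18 log2 per 1000000 cells (SE, limma adjusted p = 0.631), Sgk3 at 0.57 ± 0.10 (limma adjusted p = 0.38) and Sult1a1 at 0.40 ± 0.08 (limma adjusted p = 0.502). The control enters as 0 cells, so a step from control also gives a slope, and the 2M array, a single animal, has the highest leverage. Left with 3 arrays and 1 residual degree of freedom, the trend passed limma for Sgk3, Plin4 and Sult1a1 without the 0.5M array, as it did for 38 of all genes tested (0.318%). Without the 1M array it passed for Sgk3, Map3k6, Arrdc2, Sult1a1 and Fam107a and for 58 of all genes tested (0.485%), Map3k6 and Arrdc2 again having controls below the filter value. Without the 2M array it passed for 0 of the 32 genes and 0 of all genes tested (0%).

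Further glucocorticoid-responsive genes outside the set were mostly above control. This list was chosen with earlier results of these data known, so it is not an independent check of the set. Of 18 measured, the control array lay below all 3 tumour-bearing arrays for 16 (33.4% of the genes tested). It lay above all 3 for 0 of them (27.3% of the genes tested). Their mean differences from control had a median of 0.19 log2. The list includes genes below the filter, which 16 of the 18 passed. Lcn2, an iron-siderophore carrier that many signals besides glucocorticoids induce, was the 1 gene of this list that passed limma and rose, by 2.51 ± 0.29 log2 (limma adjusted p = 0.0327). It was at 6.02 log2 in the control, 8.53 at 0.5M, 8.23 at 1M and 8.82 at 2M. Like Map3k6 and Arrdc2, Lcn2 passed the filter through the tumour-bearing arrays, its control value lying below the filter value of 6.59 log2. Mfsd2a, a lipid transporter of brain endothelium, was at 10.49, 10.90, 10.92 and 11.15 log2 in the same order. Agt, the angiotensinogen gene of astrocytes, was 0.37 ± 0.17 log2 and Gadd45g, a growth arrest gene, 0.39 ± 0.25 log2 above control on average, and neither passed limma.

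The chaperones and co-regulators of the receptor were mixed. Of 12 measured, 3 lay above control in every tumour-bearing array (33.4% of the genes tested) and 5 below it (27.3% of the genes tested). The control lay within the range of the tumour-bearing arrays for the co-regulators Ncoa3, Crebbp and Ep300 and the co-chaperone Stip1. Grouped after the values were seen, the 3 above were co-regulators (Ncoa1, Ncoa2 and Nrip1, the last by only 0.002 log2 at 0.5M). The 5 below were chaperones or co-chaperones (Hsp90aa1, Hspa8, Ptges3, Dnajb1 and Ppid). This grouping was read from the same values, so it was not tested. The median of the 12 was -0.03 log2, and 0 passed limma (2 higher and 1 lower at an unadjusted p under 0.05). Ncoa2 and Ncoa1, co-activators that bind the receptor with hormone, were 0.37 ± 0.04 and 0.29 ± 0.06 log2 above control. The chaperone genes Dnajb1 and Ppid differed by -0.31 ± 0.10 and -0.28 ± 0.12 log2. Among peptides and receptors of the stress axis, 3 of 11 lay above and 3 below control in every tumour-bearing array, and 0 passed limma (1 higher and 0 lower at an unadjusted p under 0.05). Of the genes tested, 33.4% lay above and 27.3% below control in every tumour-bearing array, and 6 of the 11 passed the filter. Avp, the vasopressin gene, was at 9.92 log2 in the control, 10.42 at 0.5M, 10.48 at 1M and 10.47 at 2M. Crh, which lay below the filter value, was at 5.28, 5.07, 5.09 and 5.96 log2 in the same order. Pomc, the corticotropin precursor gene, was at 7.19, 6.99, 6.98 and 6.73 log2 in the same order. In the list of hormone metabolism and transport, 4 of 6 lay above control in every tumour-bearing array (33.4% of the genes tested). In the same list 1 lay below it in every one (27.3% of the genes tested). Only 2 of the 6 passed the filter, and 0 passed limma, with 0 at an unadjusted p under 0.05. Hsd11b2, which inactivates corticosterone and lay below the filter value, was at 5.53, 5.76, 5.83 and 5.97 log2 in the control, 0.5M, 1M and 2M arrays.

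Lists that share inducers or cell types with these genes were set beside them. Of the genes tested, 33.4% lay above and 27.3% below control in every tumour-bearing array. The lists include genes below the filter, which 11 of the 14 immediate early genes, 6 of the 9 p53 targets and 6 of the 10 fasting genes passed. Clock genes other than Per1 had a median of the mean differences of 0.05 log2 (15 genes, 6 above and 4 below control in every tumour-bearing array). Immediate early genes, which like Dusp1 respond to cell activity, had a median of -0.06 log2, with 0 of 14 above and 5 below control in every tumour-bearing array. Targets of p53, of which Cdkn1a is the best known, had a median of 0.11 log2 (9 genes), and fasting and lipid oxidation genes, which share inducers with Plin4, Pdk4 and Angptl4, 0.00 log2 (10 genes). Astrocyte markers, which the cells expressing Fam107a, Gjb6 and Glul also express, had a median of -0.005 log2 (10 genes, 1 above and 2 below control in every tumour-bearing array). In limma 0 genes of these 5 lists passed, with 1 higher (the clock gene Tef) and 2 lower (the immediate early gene Egr1 and the astrocyte water channel Aqp4) at an unadjusted p under 0.05. The difference between these lists and the glucocorticoid genes was not tested.

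Some marker lists had medians above control, as the glucocorticoid genes did. Of the genes tested, 33.4% lay above and 27.3% below control in every tumour-bearing array. The marker lists also include genes below the filter, which 4 of the 9 pituitary, 2 of the 6 blood and 8 of the 9 hypothalamus markers passed. Pituitary markers had a median of 0.34 log2, with 7 of 9 above and 2 below control in every tumour-bearing array, and their mean log2 level was 6.11 in the control, 7.19 at 0.5M, 6.44 at 1M and 6.25 at 2M. That mean at 0.5M is carried by Gh and Prl, while the list had a median difference of 0.32 log2 at 0.5M, 0.38 at 1M and 0.30 at 2M. Blood markers had a median of 0.26 log2, with 5 of 6 above control in every tumour-bearing array and mean levels of 5.94, 6.36, 6.47 and 6.45 log2 in the same order. Hypothalamus markers had a median of 0.29 log2, with 6 of 9 above control in every tumour-bearing array and mean levels of 8.90, 9.14, 9.13 and 9.20 log2. The part of these in the differences of the glucocorticoid genes was not tested. Endothelial markers had a median of 0.06 log2, with 6 of 10 above and 3 below control in every tumour-bearing array. Among them Vwf, the von Willebrand factor gene, exceeded control by 0.78 log2 at 0.5M, 0.71 at 1M and 0.76 at 2M (limma adjusted p = 0.119), and Tek, an angiopoietin receptor, differed by -0.31, -0.32 and -0.33 log2. The part of these was not tested either. Choroid plexus and ependymal markers had a median of 0.05 log2, neuron markers 0.02, and oligodendrocyte and microglia markers -0.11 each. Array values have no 0, so no marker could be called absent.

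**Figure D4:**
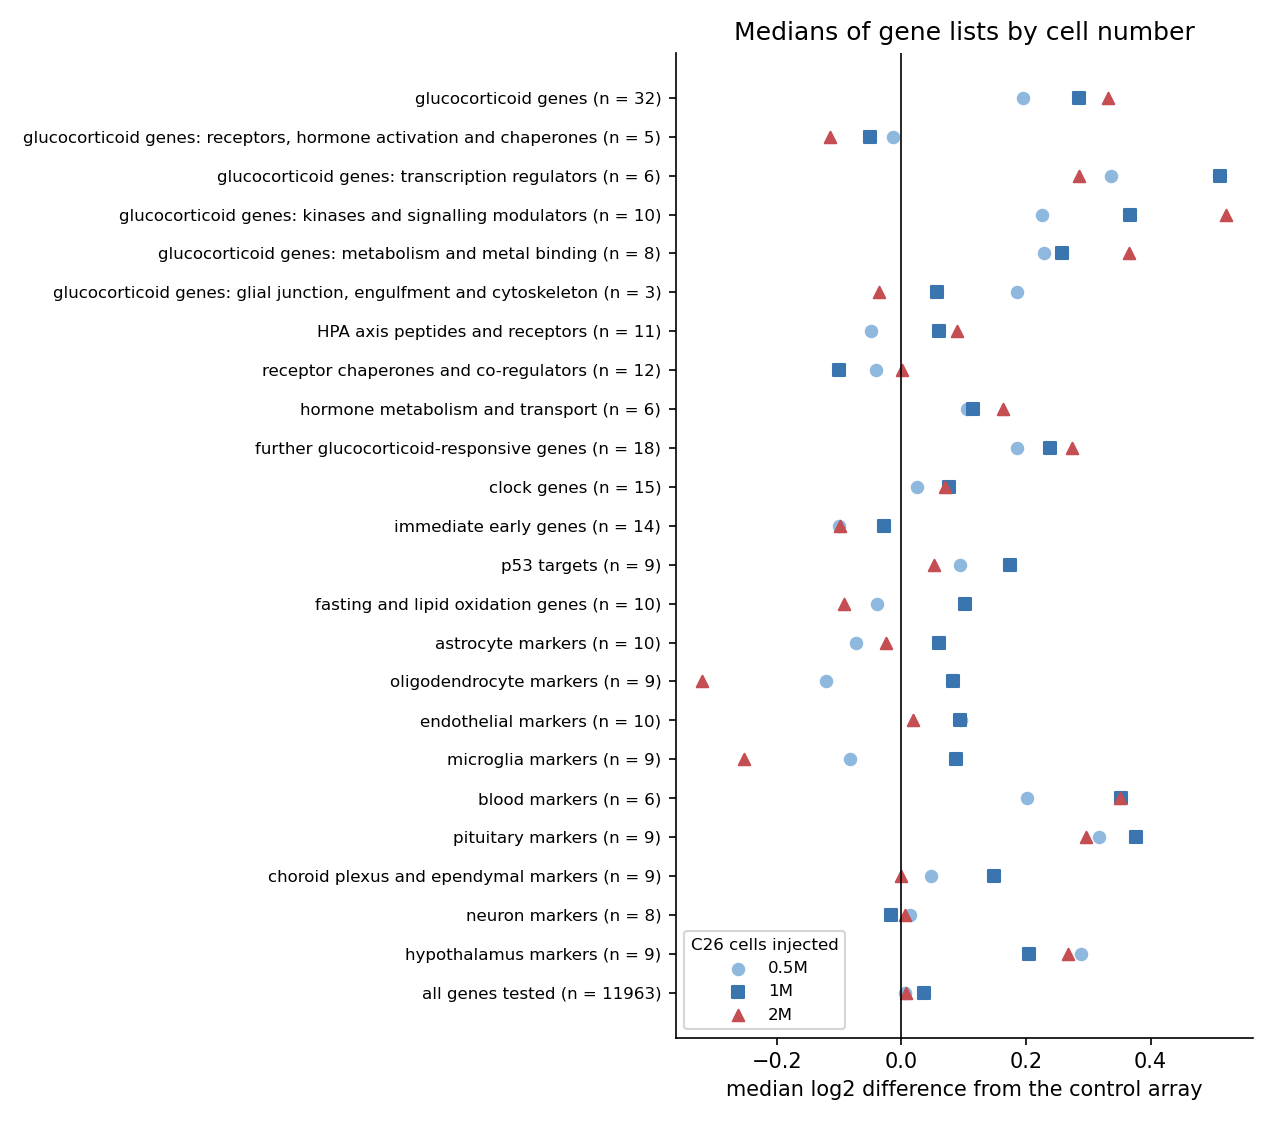
Median log2 difference from the control array (x axis) for the glucocorticoid genes, their roles and the further lists (rows, with the number of genes measured), with 1 symbol per tumour-bearing array (circle 0.5M, square 1M, triangle 2M). The 32 glucocorticoid genes lie at 0.20, 0.29 and 0.33 and all genes tested at 0.01, 0.04 and 0.01. The receptors and their partners lie below 0, and pituitary, blood and hypothalamus markers lie above 0 at every cell number. The further lists include genes below the filter.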

How the data were processed

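Hypothalamus RNA was measured on 4 arrays, 1 per group, after whole-transcript synthesis from 100 ng, per the labels' protocols. The deposited values are log2 expression. The submitters' processing notes name RMA. RMA aligns array distributions by quantiles, which removes any change common to all transcripts, and the sources used here give neither its version nor a genome build. Of 35556 probe sets, 21789 had 1 gene symbol, 1621 several and 12146 were unnamed here. A gene with more than 1 probe set was represented by its brightest. Genes under the 40th percentile of gene means (6.59 log2) were dropped, leaving 11963 of 19938, with all 32 measured members among them.

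Differences are tumour-bearing minus control. Two-sided tests used limma 3.58.1 in R 4.3.3 (lmFit, eBayes, Benjamini-Hochberg over all genes tested, 2 residual degrees of freedom). The code was also run on simulated data with the same spread for all genes and arrays. That run could not check whether the lone control array varies like the others. The SD over the tumour-bearing arrays holds no uncertainty of the control. Other values and plots used pandas 2.3.3, numpy 2.4.6 and matplotlib 3.10.9 under Python 3.11.15. All members are named, and genes named from a further list are among its 4 with the largest absolute mean difference. Hcrt, Sim1, Crh, Nrip1, Ncoa3, Crebbp, Ep300, Stip1, Hsp90aa1, Hspa8 and Ptges3 were named after their values were seen. The members and the 17 lists (191 genes) were chosen with earlier results of these data known. Alternatives were other filters, cyclic loess, median centring, averaged probe sets, a variance trend, other thresholds, equal dose steps and leaving out each tumour-bearing array.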

Additional observations from a re-analysis of the deposited data

Results flagged for a closer look

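The probe set that lists both Cdkn1a, a cell cycle inhibitor induced by p53 and by glucocorticoids, and 4930567H12Rik was outside the comparisons because its signal cannot be assigned to 1 of them. It stood at 9.19 log2 in the control, 9.74 at 0.5M, 9.60 at 1M and 10.15 at 2M, a mean difference of 0.64 ± 0.29 log2 (SD over the 3 tumour-bearing arrays), and it is given because every tumour-bearing array exceeded the control array. No test was made. It was not in the order of cell number, since the 1M array lay below the 0.5M array.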

How the results depend on the processing

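The 32 mean differences were recomputed under up to 9 alternatives each. Other filters and the variance trend leave a mean difference as it was, and averaged probe sets can move only that of Glul. In those settings the sign was otherwise fixed in advance, and only the limma p could move. There were 282 values in all. In 276 both the sign and the side of the limma threshold stayed. Plin4 passed without the 0.5M and without the 2M array, as given above, and 4 genes near 0 changed sign: Mt2 (-0.00396 with median centring), Gpd1 (-0.000104 without 2M to 0.272 without 0.5M), Hsd11b1 (-0.0759 without 1M to 0.0589 without 2M) and Mertk (-0.0175 without 0.5M to 0.122 without 2M). Cyclic loess and median centring shifted the median of all genes by less than 0.1 log2. Over all genes, limma called 6 in the tumour comparison, 1 without the filter and 2 with the 60th percentile filter, and 3 to 6 when 1 array was left out. Of the 32, 0 to 1 were then called. In the trend, leaving out 1 array gave 0 to 58 calls, 0 to 5 of them among the 32, with 1 residual degree of freedom. Counts of genes above a threshold follow it: at 0.3 log2, 11, 15 and 17 lay above control at 0.5M, 1M and 2M and 9 were higher at 2M than at 0.5M, and at 1 log2 these were 1, 1, 2 and 0. With the 60th percentile filter the median of the mean differences was 0.19, against 0.29, and 1 gene lay above 0.5 log2 at 0.5M. The cause of these changes was not tested, except that filters change which genes are tested. No paired analysis was possible because every group was 1 array.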
